A study of Mus musculus with 9 samples.

Results

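The autophagy machinery and its cargo receptors were followed here as 38 genes chosen by symbol, out of 54838 genes counted. The symbols were looked up in the gene column of the authors' deposited result tables and joined by Ensembl ID to the count files; all 38 were found. The choice rule used no measured value, although earlier results of these data were known when the list was made. RNA was sequenced from B16F10, an established mouse melanoma line, and from CD8+ T cells of the spleen, each kept with or without hypochlorous acid (HOCl), the oxidant that neutrophil myeloperoxidase makes. The 4 groups, all of strain C57BL/6 per the labels, were B16F10 given 600 µM HOCl for 5 h (3 libraries), untreated B16F10 held for the same 5 h (3 libraries), T cells given 600 µM HOCl for 5 h (1 library) and untreated T cells (2 libraries). B16F10 is a single tumour line grown for days on plates, and the T cells came from adult mice through a CD8a+ isolation kit. The labels do not say whether libraries of a group were separate cultures or animals; each p-value therefore reflects the spread of these libraries alone, and that spread may be technical.

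Autophagy wraps part of the cytoplasm in a growing double membrane and delivers it to the lysosome. A kinase complex around ULK1 gives the start signal, a class III PI3-kinase complex makes the lipid PI3P at the site, PI3P readers with lipid-transfer and scrambling proteins extend the membrane, and a ubiquitin-like conjugation system couples ATG8 proteins (the LC3 and GABARAP families) to it. Cargo receptors such as p62 (Sqstm1) bind ubiquitin-marked cargo on one side and ATG8 proteins on the other, and the SNARE protein syntaxin 17 serves fusion of the closed autophagosome with the lysosome. RNA levels show none of this flux. They give each transcript's share of a library, as counts per M counts (CPM). Means are given ± SD over the libraries of a group, and log2 fold changes ± SE.

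The libraries of B16F10 held 49.0 to 52.6 M counts with HOCl and 45.9 to 61.3 M untreated, with 0.5003 to 0.711% of counts in mitochondrial transcripts. The T cell HOCl library stood apart: it held 12.8 M counts, against 49.9 and 52.1 M in untreated T cells, and 37.4% of them were mitochondrial, against 1.55 and 2.11%. Despite the fewer counts, 44225 genes had a count in it, against 25616 and 22855 in untreated T cells. The 7 melanocyte markers (Pmel, Dct, Tyr, Tyrp1, Mlana, Mitf and Sox10) summed to 6712 CPM in the T cell HOCl library, against 101 and 25.6 CPM in untreated T cells and 24046 to 25084 CPM in B16F10, and 8 T cell markers summed to 675 CPM, against 5316 and 3869 CPM. T cell markers also stood at 35.8 CPM in HOCl-treated B16F10 replicate 3, against 5.79 to 7.31 CPM in the other B16F10 libraries. Values of that T cell library are given below as description only, and results in B16F10 were also computed without replicate 3. All 8 T cell markers had counts in that replicate, while Cd2 was at 0 in HOCl replicate 1 and untreated replicate 3. Lists of B cell, macrophage, neutrophil and erythroid markers each summed to at most 7.06 CPM in B16F10. Fibroblast markers summed there to 44.6 to 48.5 CPM with HOCl and 44.4 to 47.2 CPM untreated. In the T cell HOCl library all of these lists summed higher than in either untreated T cell library. As a share of the untreated T cell mean, B cell markers stood at 312%, macrophage at 321%, neutrophil at 832% and erythroid at 445%. Fibroblast markers stood at 3270%, with 54.6 CPM, above every B16F10 library. The source of these counts was not tested. In untreated libraries the labelled cell types showed their markers, with all 7 melanocyte genes higher in B16F10 and all 8 T cell genes higher in T cells.

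Promoter windows show the sequence around an annotated start of a gene. RefSeq on GRCm38.p6 gave windows of 250 bases before to 50 bases after a start for 32 of the 38 members. Among these were 17 of the 20 members that were higher with HOCl in the B16F10 comparison below. Each is printed 5′ to 3′ on the gene's own strand, and capitals mark a match to a motif searched on both strands: the antioxidant response element core TGACNNNGC, the E-box CACGTG, its extension TCACGTGA, which contains the E-box, and the C/EBP-ATF element TGATGCAA. Gabarapl1, Atg14, Sqstm1 and Tax1bp1 are shown because the first 3 had the largest differences between HOCl-treated and untreated B16F10, and Tax1bp1 as a cargo receptor with a match to the antioxidant core.
Gabarapl1 (chr6:129532942-129533241, plus strand): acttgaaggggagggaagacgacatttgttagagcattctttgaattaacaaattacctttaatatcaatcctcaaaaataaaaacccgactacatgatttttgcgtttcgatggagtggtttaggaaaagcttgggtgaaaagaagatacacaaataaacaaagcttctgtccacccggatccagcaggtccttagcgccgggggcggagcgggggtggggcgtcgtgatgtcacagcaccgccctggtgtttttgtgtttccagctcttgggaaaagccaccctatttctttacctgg
Atg14 (chr14:47568385-47568684, minus strand): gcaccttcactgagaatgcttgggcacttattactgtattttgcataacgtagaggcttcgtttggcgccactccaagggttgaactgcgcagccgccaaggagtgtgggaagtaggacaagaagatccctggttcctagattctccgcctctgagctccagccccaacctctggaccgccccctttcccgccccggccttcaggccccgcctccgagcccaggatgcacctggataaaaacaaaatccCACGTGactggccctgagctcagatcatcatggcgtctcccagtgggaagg
Sqstm1 (chr11:50210771-50211070, minus strand): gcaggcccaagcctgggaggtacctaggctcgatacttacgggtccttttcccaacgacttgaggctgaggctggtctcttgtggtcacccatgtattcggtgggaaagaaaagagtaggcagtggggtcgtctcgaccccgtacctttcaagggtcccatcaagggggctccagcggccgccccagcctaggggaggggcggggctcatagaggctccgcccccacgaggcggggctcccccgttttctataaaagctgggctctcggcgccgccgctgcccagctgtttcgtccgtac
Tax1bp1 (chr6:52713915-52714214, plus strand, the second of its windows): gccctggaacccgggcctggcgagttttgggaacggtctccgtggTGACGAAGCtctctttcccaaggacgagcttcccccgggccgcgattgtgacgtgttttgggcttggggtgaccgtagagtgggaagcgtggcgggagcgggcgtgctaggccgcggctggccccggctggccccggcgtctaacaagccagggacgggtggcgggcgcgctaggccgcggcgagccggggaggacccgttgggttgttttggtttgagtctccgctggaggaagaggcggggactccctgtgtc

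The Atg14 window held CACGTG near its 3′ end, and the Tax1bp1 window held TGACGAAGC in its 5′ part. The Gabarapl1 and Sqstm1 windows held none of the 4 motifs, which says only that these letters are not in these windows. Across the members with a window, TGACNNNGC was found for 5 of 32 (Ulk2, Atg13, Vmp1, Map1lc3b and Tax1bp1), and in 12.4% of all 32851 windows. Members are counted by gene, with a match in any of their windows, and the shares of all windows by window. The units thus differ, and members with several windows, such as Vmp1 and Tax1bp1, had more places for a match. CACGTG was found for 4 of 32 (Atg14, Atg3, Atg5 and Atg7), and in 7.15% of all windows. The Atg7 window starts at chr6:114670846, inside a gene annotated from 114643097 on the plus strand, so it is not at the outermost start. The Atg14 window likewise lies inside its gene, which is annotated to chr14:47570649 on the minus strand. TCACGTGA was found for Atg3 alone among members, and in 0.974% of all windows, while TGATGCAA was found for no member and in 0.895% of all windows. Member windows had a median GC content of 59.7% and a median of 19.5 CpG dinucleotides, against 52.7% and 7 over all windows. These matches are descriptions of sequence and not binding sites.

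In B16F10, autophagy transcripts rose with HOCl for many members, and none was called lower. Of 38 members tested, 20 were higher in HOCl-treated than in untreated cells (52.6%), 0 were lower and 18 did not pass the test (edgeR quasi-likelihood test, adjusted p under 0.05). Over all 16082 genes tested, 14.7% were higher and 13.5% lower. At an unadjusted p under 0.05, 2 members were lower (Atg3 and Atg7), and DESeq2 also called 20 higher and 0 lower. The median log2 fold change, HOCl over untreated, was 0.19 over the members and -0.01 over all genes tested. The members together held 5070, 5059 and 4916 CPM in HOCl-treated libraries, against 4042, 3913 and 3965 CPM in untreated libraries. That sum leans on Sqstm1, which alone averaged 1859 CPM with HOCl and 1318 CPM untreated. A rise in every cell and a rise in some of the cells cannot be told apart in such bulk samples.

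The rises were small and uneven across the steps. All 5 members of the ULK1 complex and all 5 cargo receptors rose, as did 4 of 6 members of the PI3-kinase complexes, 2 of 6 of the PI3P readers and membrane proteins, 1 of 6 conjugation enzymes, 1 of 4 ATG4 proteases and 2 of 5 ATG8 genes, and Stx17 did not pass. The call of 15 of the 20 held with every library left out in turn, and 18 of the 20 held without HOCl replicate 3, where Atg4c and Map1lc3b were lost. Of the 20 risers, 18 changed by less than 1.5-fold, and Gabarapl1 alone passed a test against a change of 1.5-fold. The 3 HOCl-treated libraries all lay above the 3 untreated ones in CPM for 24 members (25.2% of all genes) and all below for 2 (18.4% of all genes), and the ranges overlapped for 12. All 20 risers were among the 24. With all 9 libraries in 1 fit, where the spread is shared with the T cell libraries, no member passed: 0 of 38 by adjusted p, 10 higher and 0 lower by unadjusted p.

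**Figure D1:**
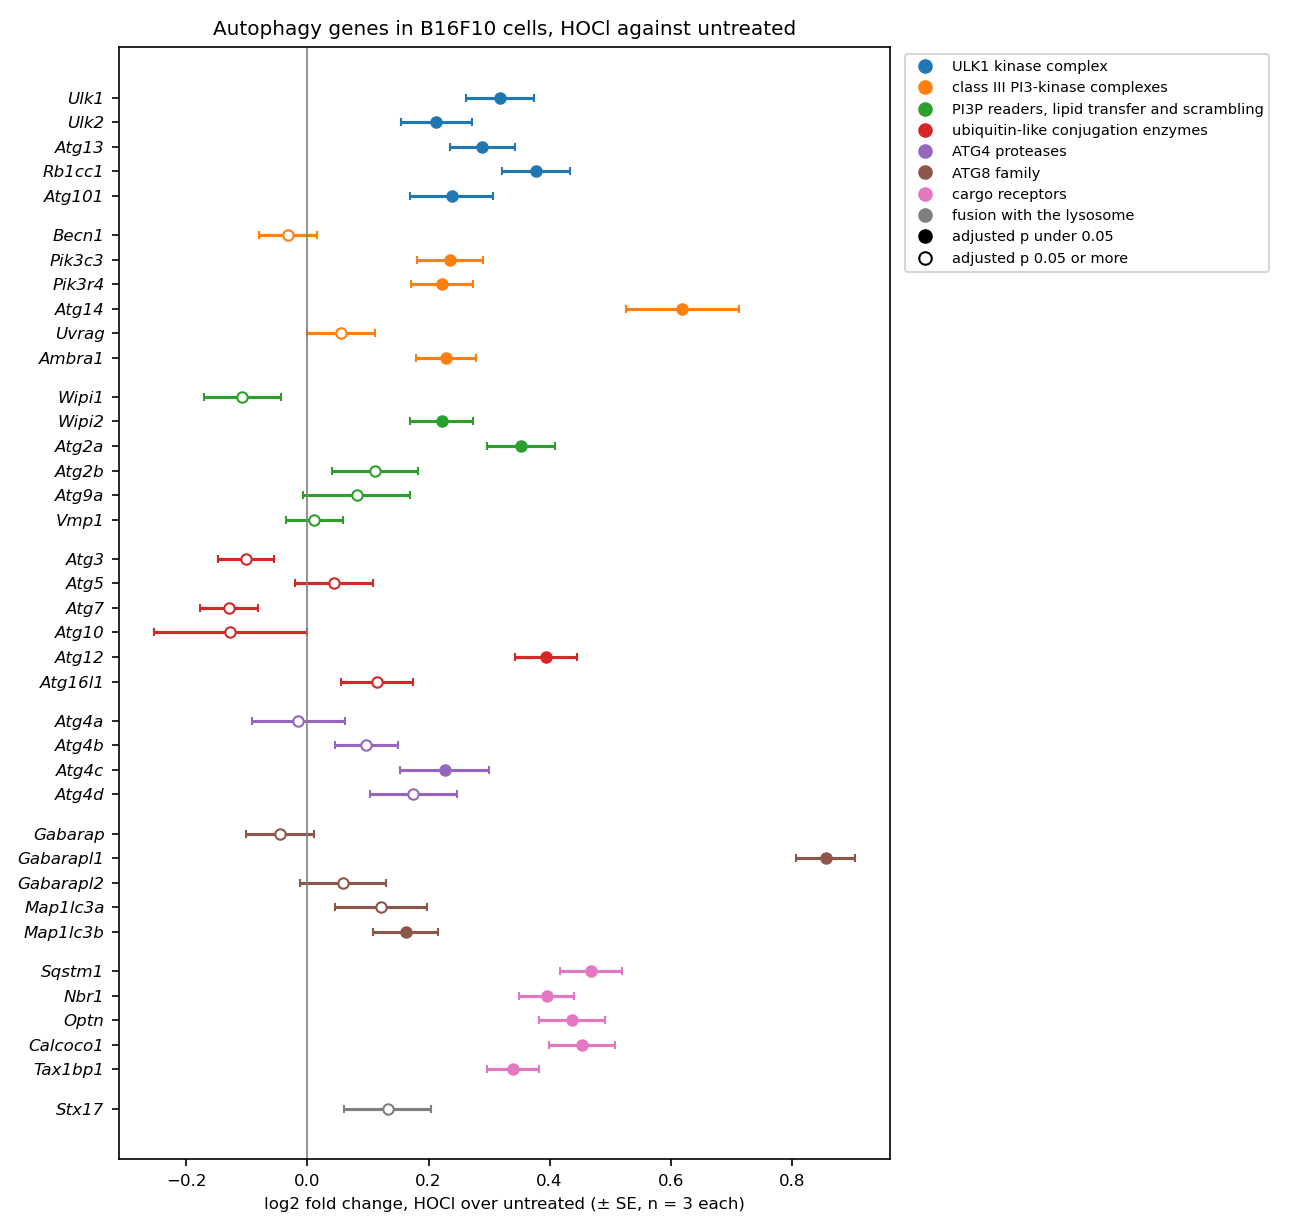
Log2 fold change, HOCl over untreated B16F10, for the 38 members (x axis, ± SE, n = 3 each), grouped by step from top to bottom; filled points passed an adjusted p of 0.05 and open points did not. Filled points stand at the ULK1 complex and the cargo receptors throughout, Gabarapl1 lies farthest right at 0.86, and no filled point lies left of 0.

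The start complex rose as a whole. Ulk1, the kinase that starts autophagy, had 40.6, 42.7 and 43.3 CPM in HOCl-treated cells, against 33.0, 33.2 and 33.4 CPM in untreated cells (log2 fold change 0.32 ± 0.06, edgeR adjusted p = 0.00133). The HOCl libraries were all above the untreated ones. Rb1cc1, the large scaffold also called FIP200, had 43.7, 42.6 and 43.8 CPM in HOCl-treated cells, against 31.5, 33.5 and 33.4 CPM in untreated cells (log2 fold change 0.38 ± 0.06, edgeR adjusted p = 0.000448). Atg13, the adaptor that binds ULK1 to that scaffold, had 69.6, 66.3 and 70.5 CPM in HOCl-treated cells, against 54.0, 54.4 and 57.5 CPM in untreated cells (log2 fold change 0.29 ± 0.05, edgeR adjusted p = 0.00185). For both genes the groups were again apart. Ulk2, the second kinase, averaged 55.0 ± 1.30 CPM in HOCl-treated and 46.6 ± 2.74 CPM in untreated cells (SD, n = 3 each; log2 fold change 0.21 ± 0.06, edgeR adjusted p = 0.0177). Atg101, a partner of ATG13, averaged 42.1 ± 1.29 CPM in HOCl-treated and 35.0 ± 2.93 CPM in untreated cells (SD, n = 3 each; log2 fold change 0.24 ± 0.07, edgeR adjusted p = 0.0213). The calls of these last genes were lost when single libraries were left out, for Ulk2 without HOCl replicate 1 or 2, and for Atg101 without HOCl replicate 1 or 2 or untreated replicate 2 or 3. Per exon length Ulk2 was the more abundant kinase transcript in both B16F10 groups, at 33.0 TPM against 23.3 TPM for Ulk1 with HOCl, and 27.3 against 17.9 TPM untreated (mean transcripts per M transcripts).

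Among the PI3-kinase genes, Atg14 changed most. Atg14, the subunit that directs the complex to the forming autophagosome, had 19.3, 15.6 and 17.8 CPM in HOCl-treated cells, against 11.4, 10.5 and 11.8 CPM in untreated cells (1.54-fold; log2 fold change 0.62 ± 0.09, edgeR adjusted p = 0.000488). Every HOCl library exceeded every untreated one, although the gene was among the lowest members, at 14.6 TPM with HOCl and 9.07 TPM untreated. Pik3c3, the lipid kinase VPS34, had 59.4, 60.3 and 60.8 CPM in HOCl-treated cells, against 51.6, 51.3 and 47.6 CPM in untreated cells (log2 fold change 0.24 ± 0.05, edgeR adjusted p = 0.00679). Pik3r4, its regulatory subunit VPS15, averaged 67.1 ± 1.55 CPM in HOCl-treated and 56.4 ± 1.57 CPM in untreated cells (SD, n = 3 each; log2 fold change 0.22 ± 0.05, edgeR adjusted p = 0.00682). Ambra1, a regulator that binds Beclin 1, averaged 75.1 ± 0.576 CPM in HOCl-treated and 62.9 ± 2.09 CPM in untreated cells (SD, n = 3 each; log2 fold change 0.23 ± 0.05, edgeR adjusted p = 0.00514). These 3 rises came to between 16.7 and 17.7%, and their groups were apart. Becn1, the scaffold Beclin 1, averaged 103 ± 1.93 CPM in HOCl-treated and 103 ± 3.23 CPM in untreated cells (log2 fold change -0.03 ± 0.05, edgeR adjusted p = 0.658). Uvrag, which takes the place of ATG14 in the endosomal complex, averaged 86.8 ± 2.84 CPM in HOCl-treated and 82.0 ± 4.89 CPM in untreated cells (log2 fold change 0.06 ± 0.06, edgeR adjusted p = 0.508). The ranges of both overlapped between groups.

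Of the genes that extend the membrane, Atg2a and Wipi2 rose. Atg2a, a bridge that moves lipid from the endoplasmic reticulum into the growing membrane, had 62.9, 63.1 and 67.3 CPM in HOCl-treated cells, against 47.0, 50.9 and 50.8 CPM in untreated cells (log2 fold change 0.35 ± 0.06, edgeR adjusted p = 0.000748). Wipi2, the PI3P reader that recruits ATG16L1, averaged 123 ± 5.02 CPM in HOCl-treated and 104 ± 3.85 CPM in untreated cells (SD, n = 3 each; log2 fold change 0.22 ± 0.05, edgeR adjusted p = 0.0075), and its call was lost without HOCl replicate 1. The other 4 did not pass. Their log2 fold changes were -0.11 for Wipi1, a related PI3P reader, 0.11 for Atg2b, the paralog of Atg2a, 0.08 for Atg9a and 0.01 for Vmp1, which are membrane proteins that scramble lipids. Atg2b was at 81.6, 79.9 and 84.2 CPM in HOCl-treated cells, against 65.2, 79.9 and 78.3 CPM in untreated cells, so the lowest HOCl library barely exceeded the highest untreated one and its edgeR adjusted p was 0.268.

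Of the 6 conjugation enzymes 1 rose, and their median log2 fold change was -0.03. Atg12, the ubiquitin-like protein that is joined to ATG5, was that gene, with 55.6, 55.8 and 56.6 CPM in HOCl-treated cells, against 41.2, 41.9 and 42.4 CPM in untreated cells (log2 fold change 0.39 ± 0.05, edgeR adjusted p = 0.00019). Its partner Atg5 averaged 36.3 ± 1.24 CPM in HOCl-treated and 34.6 ± 2.06 CPM in untreated cells (log2 fold change 0.04 ± 0.06, edgeR adjusted p = 0.662). The E1-like enzyme Atg7 had 74.0, 74.6 and 74.6 CPM in HOCl-treated cells, against 81.8, 78.8 and 79.2 CPM in untreated cells (log2 fold change -0.13 ± 0.05, edgeR adjusted p = 0.0618). Atg3, the E2-like enzyme for ATG8 proteins, had 93.5, 97.4 and 95.0 CPM in HOCl-treated cells, against 101, 99.7 and 101 CPM in untreated cells (log2 fold change -0.10 ± 0.05, edgeR adjusted p = 0.127). Atg7 and Atg3 were the members with all HOCl libraries below all untreated ones, and neither passed after adjustment. Atg10, the E2-like enzyme for ATG12, was the only member under 10 CPM in any B16F10 library, with 6.47, 5.82 and 7.44 CPM in HOCl-treated cells, against 8.07, 6.40 and 6.60 CPM in untreated cells. Atg16l1, which holds the ATG12-ATG5 conjugate at the membrane, averaged 41.3 ± 1.03 CPM in HOCl-treated and 37.4 ± 1.90 CPM in untreated cells (edgeR adjusted p = 0.179).

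The ATG4 proteases trim ATG8 proteins before conjugation and release them afterwards. Atg4c had 28.2, 29.5 and 27.8 CPM in HOCl-treated cells, against 22.3, 26.3 and 23.0 CPM in untreated cells (log2 fold change 0.23 ± 0.07, edgeR adjusted p = 0.0369), and its call was lost when any single HOCl library or untreated replicate 3 was left out. Atg4a, Atg4b and Atg4d did not pass, with log2 fold changes of -0.01, 0.10 and 0.17; that of Atg4a turned to 0.01 when library totals were used without TMM scaling. The Atg4d exons share 1405 bases with Kri1 on the opposite strand, which had 23.8 CPM in HOCl-treated and 21.8 CPM in untreated cells, against 32.2 and 28.0 CPM for Atg4d. The strand setting of the counting is not given in the sources used here, so reads of these genes cannot be told apart there. Becn1 shares 3104 exon bases with Cntd1, and Uvrag 1589 with Gm45187, both on the opposite strand. Atg9a shares 1832 with Gm29253 on the same strand, where no strand setting separates the reads. Cntd1, Gm45187 and Gm29253 had at most 0.562 CPM in the B16F10 group means.

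Gabarapl1 had the largest change of all members. This gene of the GABARAP branch of the ATG8 family (chr6:129533160-129542346, plus strand, ENSMUSG00000030161, GRCm38) had 239.8, 231 and 219.6 CPM in HOCl-treated cells, against 125, 124 and 125 CPM in untreated cells (1.81-fold; log2 fold change 0.86 ± 0.05, edgeR adjusted p = 9.66e-07). The untreated libraries were nearly level and every HOCl library lay far above them, which placed the gene at rank 405 of 16082 by log2 fold change. Map1lc3b, the LC3B gene whose protein is the usual autophagosome marker, had 176, 177 and 166 CPM in HOCl-treated cells, against 161, 148 and 145 CPM in untreated cells (log2 fold change 0.16 ± 0.05, edgeR adjusted p = 0.0407). That rise was small, and its call was lost when any single HOCl library, or untreated replicate 2 or 3, was left out. Gabarap, Gabarapl2 and Map1lc3a did not pass, with log2 fold changes of -0.04, 0.06 and 0.12 and overlapping ranges. Gabarap, the most abundant ATG8 transcript of untreated cells per exon length, had 217, 209 and 199.5 CPM in HOCl-treated cells, against 225, 208 and 200.1 CPM in untreated cells.

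The make-up of the ATG8 family differed accordingly. Per exon length, Gabarapl1 made up 38.3, 38.4 and 38.2% of the family's TPM in HOCl-treated cells, against 24.4, 26.1 and 26.8% in untreated cells. Gabarap made up 37.9, 37.8 and 37.9% with HOCl and 47.9, 47.6 and 46.9% untreated. Gabarapl1 thus drew level with Gabarap in HOCl-treated cells. The family summed to 1106, 1067 and 1034 TPM with HOCl, against 861, 841 and 825 TPM untreated. With the longest transcript in place of the union of exons, Gabarapl1 held 33.2, 33.2 and 33.0% with HOCl and 20.5, 22.0 and 22.6% untreated, below the 40.5, 40.3 and 40.4% of Gabarap with HOCl.

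**Figure D2:**
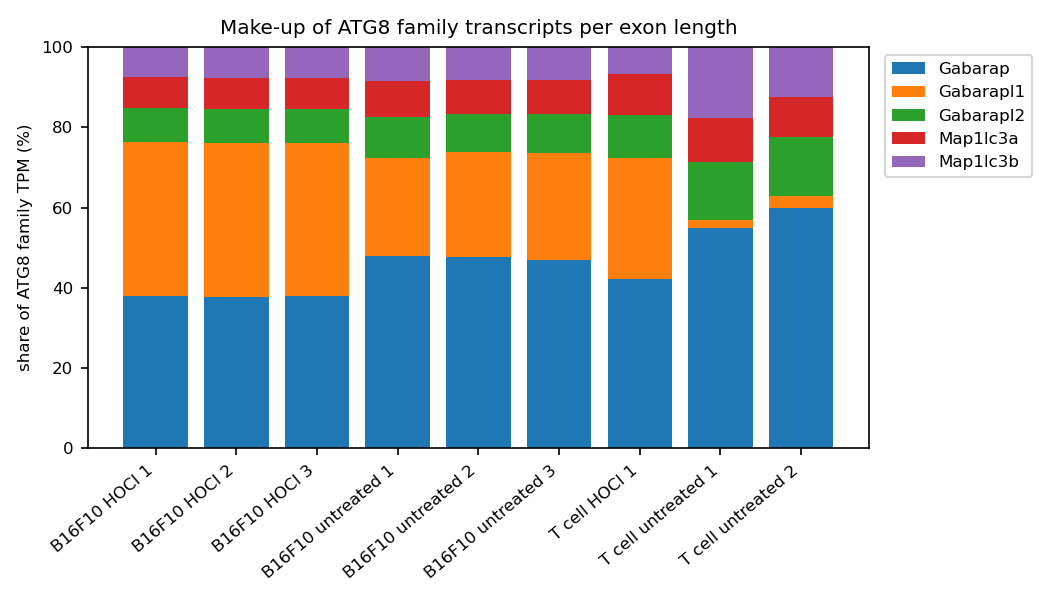
Stacked shares (y axis, % of the family's TPM from union exon length) of the 5 ATG8 genes in each of the 9 libraries (x axis). The Gabarapl1 band spans about 38% in the HOCl-treated B16F10 libraries, 24.4 to 26.8% in the untreated ones, 30.1% in the T cell HOCl library, and 2.04 and 2.94% in untreated T cells.

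All 5 cargo receptors rose, with log2 fold changes between 0.34 and 0.47. Sqstm1 (chr11:50199366-50210827, minus strand, ENSMUSG00000015837, GRCm38), which encodes p62, had 1879, 1912 and 1785 CPM in HOCl-treated cells, against 1394, 1265 and 1297 CPM in untreated cells (1.38-fold; log2 fold change 0.47 ± 0.05, edgeR adjusted p = 6.52e-05). Every HOCl library exceeded every untreated one. Calcoco1, a receptor for endoplasmic reticulum and Golgi membranes, had 105, 102 and 99.4 CPM in HOCl-treated cells, against 71.5, 70.5 and 77.3 CPM in untreated cells (log2 fold change 0.45 ± 0.05, edgeR adjusted p = 0.000106). Optn, optineurin, a receptor for ubiquitin-marked mitochondria and bacteria, had 82.9, 82.5 and 82.2 CPM in HOCl-treated cells, against 55.9, 61.995 and 61.7 CPM in untreated cells (log2 fold change 0.44 ± 0.05, edgeR adjusted p = 0.000151). Both rose by a factor close to that of Sqstm1. Nbr1, a p62 partner with the same domain plan, had 245, 239 and 247 CPM in HOCl-treated cells, against 175, 183 and 188 CPM in untreated cells (log2 fold change 0.40 ± 0.05, edgeR adjusted p = 9.03e-05). Tax1bp1, a receptor for ubiquitin-marked aggregates, had 410.3, 421 and 424 CPM in HOCl-treated cells, against 326, 325 and 323 CPM in untreated cells (log2 fold change 0.34 ± 0.04, edgeR adjusted p = 0.00015). No HOCl library overlapped an untreated one for any of the 5, and the calls of all 5 held with every library left out in turn.

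The proportions among the receptors were close in the groups. Sqstm1 made up 82.7, 83.0 and 81.9% of the receptors' summed TPM with HOCl and 82.9, 81.1 and 81.2% untreated, while the sum itself was 2410, 2445 and 2352 TPM with HOCl and 1690, 1655 and 1696 TPM untreated. Sqstm1 shares 580 exon bases with Mrnip on the opposite strand, which had 7.77 and 5.69 CPM in the HOCl-treated and untreated means. Stx17, the SNARE of autophagosome fusion, averaged 30.8 ± 2.07 CPM in HOCl-treated and 27.6 ± 1.76 CPM in untreated cells (log2 fold change 0.13 ± 0.07, edgeR adjusted p = 0.193) and its ranges overlapped.

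Per exon length, the members spanned a wide range in B16F10. Sqstm1 led with 1983 TPM with HOCl and 1373 TPM untreated, or 43.5, 44.4 and 43.2% and 40.5, 38.8 and 39.4% of all members' TPM. Gabarapl1 (409 and 217 TPM) and Gabarap (405 and 399.9 TPM) came next, followed by Tax1bp1 (149.9 and 114 TPM). The lowest with this length was Rb1cc1 at 10.6 TPM with HOCl and 7.82 TPM untreated. With the longest transcript as length, the lowest were Atg10 at 11.1 TPM with HOCl and Atg14 at 7.86 TPM untreated, and Tax1bp1 stood above Gabarapl1 in untreated cells, at 199.6 against 179 TPM.

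**Figure D3:**
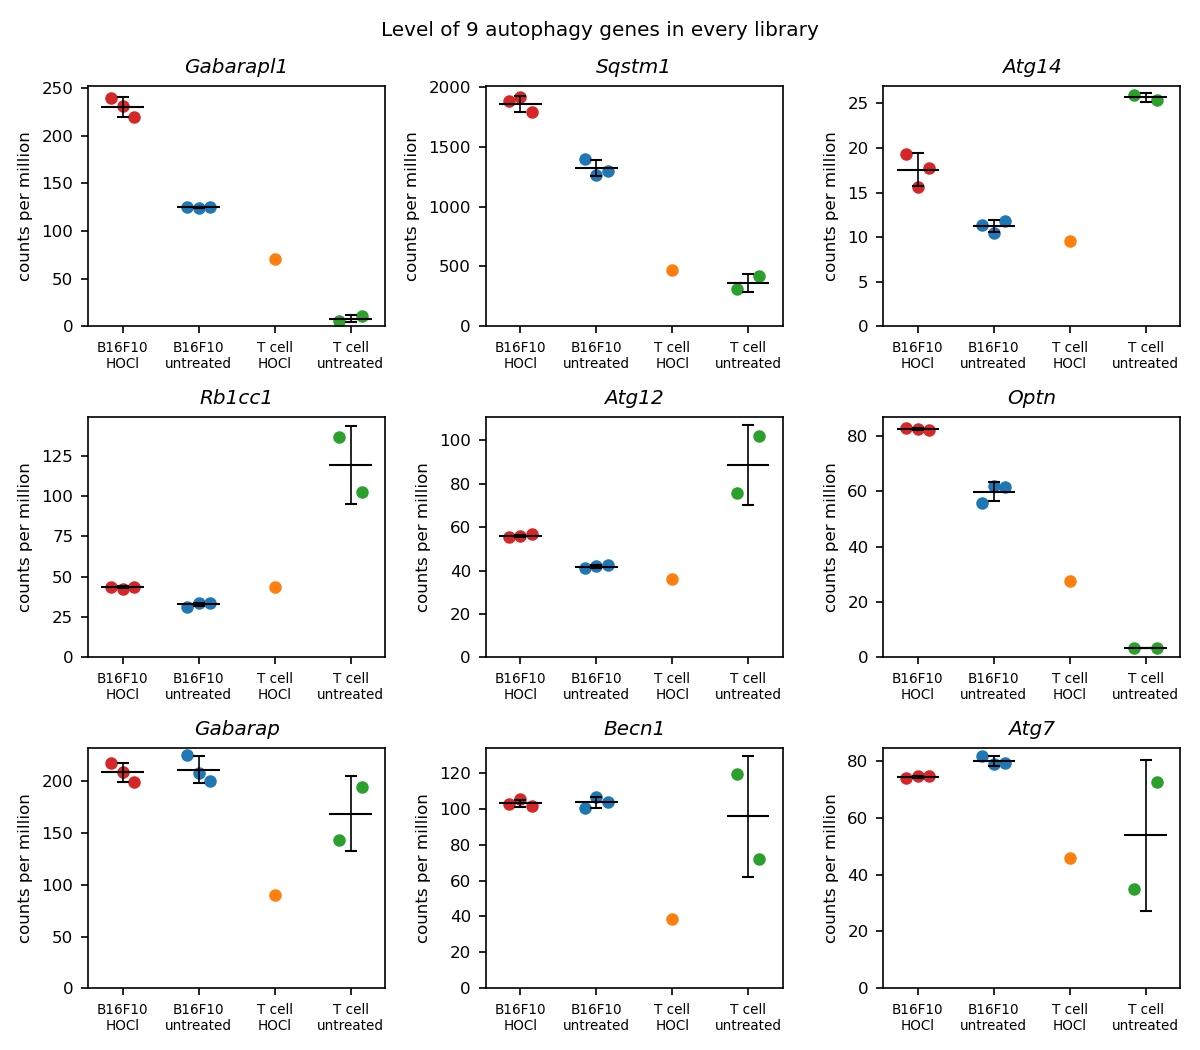
CPM of selected members in every library (points; y axes are linear and differ between panels), with the mean and SD as a line and bar where a group holds 2 or more libraries. The HOCl-treated B16F10 points lie above the untreated ones for Gabarapl1, at 219.6 to 239.8 against 123.6 to 125.5 CPM, and the untreated T cell points lie apart from each other in several panels.

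For B16F10 the authors' deposited table called 20 members with a positive log2 fold change and 0 with a negative one, and the same 20 were called here. The sign in the authors' deposited table equalled the one here for all 38 members; that table names its groups only by number, so the order of its groups was taken as deposited.

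Genes around the machinery were counted by list. Of 71 related genes tested (Rubcnl, Ccpg1 and Tfec had too few counts), 30 were higher and 3 lower with HOCl, beside the 14.7% and 13.5% of all genes. Among 11 other core genes 5 rose and 1 fell, led by Zfyve1, a PI3P-binding marker of the omegasome also called DFCP1, with 81.3 ± 1.78 CPM in HOCl-treated and 52.0 ± 1.45 CPM in untreated cells (log2 fold change 0.62 ± 0.05, edgeR adjusted p = 9.75e-06), Epg5, a tether of fusion, at 0.34 and Atg16l2 at 0.33 (log2). Tmem41b, a lipid scramblase, fell by 0.18 on the log2 scale, but its ranges overlapped between groups, and its call was lost on library totals without TMM scaling and when any single library other than untreated replicate 1 was left out. Among 20 organelle and protein receptors 4 rose and 2 fell. Those that rose most were Retreg1, a receptor for the endoplasmic reticulum (log2 fold change 0.31), Tollip (0.28) and Ncoa4, the ferritin receptor (0.27, lost when any single HOCl library was left out), and those that fell were the mitochondrial proteins Nipsnap1 (-0.28) and Phb2 (-0.26).

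Fusion and signalling genes that passed the test were all higher. Of 13 fusion and tethering genes 6 rose, led by Vps18, Vps39 and Vps33a, subunits of vacuolar tethering complexes, with log2 fold changes of 0.39, 0.24 and 0.23. Of 14 AMPK and mTORC1 subunits and regulators 5 rose. Prkab2, a regulatory AMPK subunit, had 9.96, 9.30 and 11.0 CPM in HOCl-treated cells, against 5.22, 6.38 and 5.95 CPM in untreated cells (log2 fold change 0.76 ± 0.11, edgeR adjusted p = 0.000329). Prkaa2, a catalytic AMPK subunit, and Deptor, an mTOR inhibitor, stood at 0.52 and 0.39 on the log2 scale. Of 9 transcription factors of autophagy and lysosome genes 7 rose. Ddit3, the stress factor CHOP, had 94.0, 94.0 and 96.0 CPM in HOCl-treated cells, against 55.1, 48.4 and 47.3 CPM in untreated cells (log2 fold change 0.88 ± 0.06, edgeR adjusted p = 3.77e-06). Atf4, the amino-acid and stress response factor that induces it, had 587, 567 and 599 CPM in HOCl-treated cells, against 385, 342 and 347 CPM in untreated cells (log2 fold change 0.68 ± 0.05, edgeR adjusted p = 7.53e-06). Both were well apart between groups, and Foxo3 stood at 0.31 on the log2 scale. Of 4 partners of p62, 3 rose, namely Traf6 (0.38), Keap1 (0.31), the sensor that holds NRF2, and Prkci (0.19, lost without HOCl replicate 2 or 3).

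**Figure D4:**
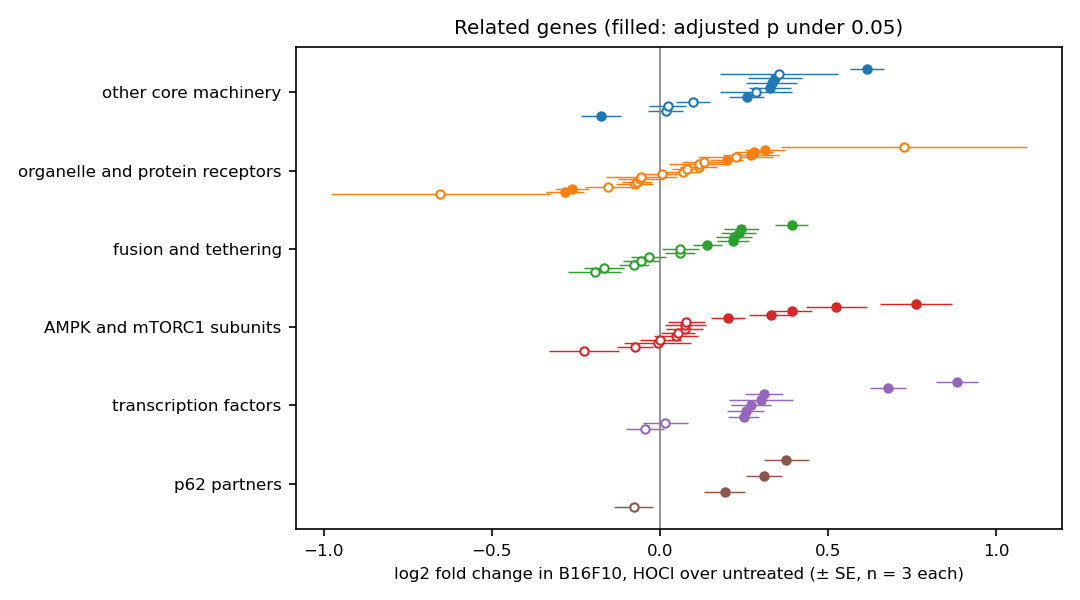
Log2 fold change, HOCl over untreated B16F10, of each tested gene (points) in the 6 related lists (rows, bars are ± SE, n = 3 each), with filled points past an adjusted p of 0.05. Most filled points lie right of 0; those left of 0 are Tmem41b, Nipsnap1 and Phb2.

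Untreated B16F10 and untreated T cells both held counts of all 38 members, at different levels for some. Of the 38, 6 were higher and 15 lower in untreated B16F10 than in untreated T cells and 17 did not pass, beside 35.8% higher and 35.4% lower among all 18352 genes tested; the share lower, 39.5% of members, was near that of all genes. On library totals without TMM scaling, where the median log2 fold change of all genes was 0.22 in place of -0.02, the split was 7 higher, with Atg3 added, and 11 lower. The untreated T cell libraries themselves differed widely, at 162 and 72.9 CPM for Ulk1 and 50.9 and 11.0 CPM for Stx17, so small differences here rest on few libraries. This comparison shares the untreated B16F10 libraries with the HOCl one.

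The members higher in B16F10 were far higher. Wipi1 had 47.5, 50.7 and 50.9 CPM in B16F10, against 2.46 and 1.86 CPM in T cells (log2 fold change 4.28 ± 0.20, edgeR adjusted p = 1.76e-05). Optn had 55.9, 61.995 and 61.7 CPM in B16F10, against 3.32 and 3.38 CPM in T cells (log2 fold change 3.91 ± 0.18, edgeR adjusted p = 1.76e-05). Atg4c had 22.3, 26.3 and 23.0 CPM in B16F10, against 1.38 and 1.46 CPM in T cells (log2 fold change 3.82 ± 0.23, edgeR adjusted p = 4.15e-05). These transcripts were close to the bottom of the members in T cells. Gabarapl1 had 125, 124 and 125 CPM in B16F10, against 5.81 and 10.4 CPM in T cells (log2 fold change 3.68 ± 0.33, edgeR adjusted p = 0.000222). Sqstm1 had 1394, 1265 and 1297 CPM in B16F10, against 310.4 and 417 CPM in T cells (3.03-fold, edgeR adjusted p = 0.00165), and Vmp1 had 99.9, 102 and 106 CPM in B16F10, against 31.1 and 39.2 CPM in T cells (log2 fold change 1.29 ± 0.19, edgeR adjusted p = 0.00148). For each of the 6, every B16F10 library lay above both T cell libraries.

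The start complex ran the other way, with 4 of 5 members lower in B16F10, and the largest difference in that direction was that of the lipid-transfer gene Atg2a. Atg2a had 47.0, 50.9 and 50.8 CPM in B16F10, against 265 and 139 CPM in T cells (log2 fold change -2.26 ± 0.25, edgeR adjusted p = 0.000476). Rb1cc1 had 31.5, 33.5 and 33.4 CPM in B16F10, against 136 and 102 CPM in T cells (log2 fold change -2.10 ± 0.15, edgeR adjusted p = 7.44e-05). Ulk1 had 33.0, 33.2 and 33.4 CPM in B16F10, against 162 and 72.9 CPM in T cells (log2 fold change -2.05 ± 0.30, edgeR adjusted p = 0.00148). For these 3 genes both T cell libraries were above all B16F10 ones. The other members lower in B16F10 were Atg14, Atg12, Calcoco1, Ulk2, Pik3c3, Atg13, Atg16l1, Ambra1, Atg4d, Atg2b, Wipi2 and Map1lc3b, with log2 fold changes between -1.44 and -0.46. The calls of Atg16l1, Ambra1, Atg4d, Atg2b, Wipi2 and Map1lc3b were lost against a change of 1.5-fold. Atg2b, Wipi2 and Map1lc3b also lost theirs with no filter on low counts, and Wipi2 and Map1lc3b without some untreated B16F10 libraries. The ranges of Wipi2 overlapped between the cell types. The 17 not called had log2 fold changes between -0.77 for Atg5 and 0.71 for Atg9a, and among them Gabarap stood at 0.07, Map1lc3a at 0.06 and Nbr1 at 0.05. Atg5 missed the threshold at an edgeR adjusted p of 0.0512 and passed as lower with DESeq2. Atg101, Becn1 and Stx17 stood at -0.19, -0.12 and -0.37, and the sign of each depended on which T cell library was left out. Such a fit holds 1 T cell library, so only its log2 fold changes are given. Without T cell replicate 1 these genes stood at -0.65, 0.24 and 1.03, and without replicate 2 at 0.58, -0.34 and -1.02. They were not alone in this. The sign also turned without a T cell library for Pik3r4, Uvrag, Atg7, Atg10, Atg4a, Gabarap, Gabarapl2, Map1lc3a and Nbr1. Without T cell replicate 1, Pik3r4 stood at 0.24 in place of -0.14 and Gabarap at -0.17 in place of 0.07.

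**Figure D5:**
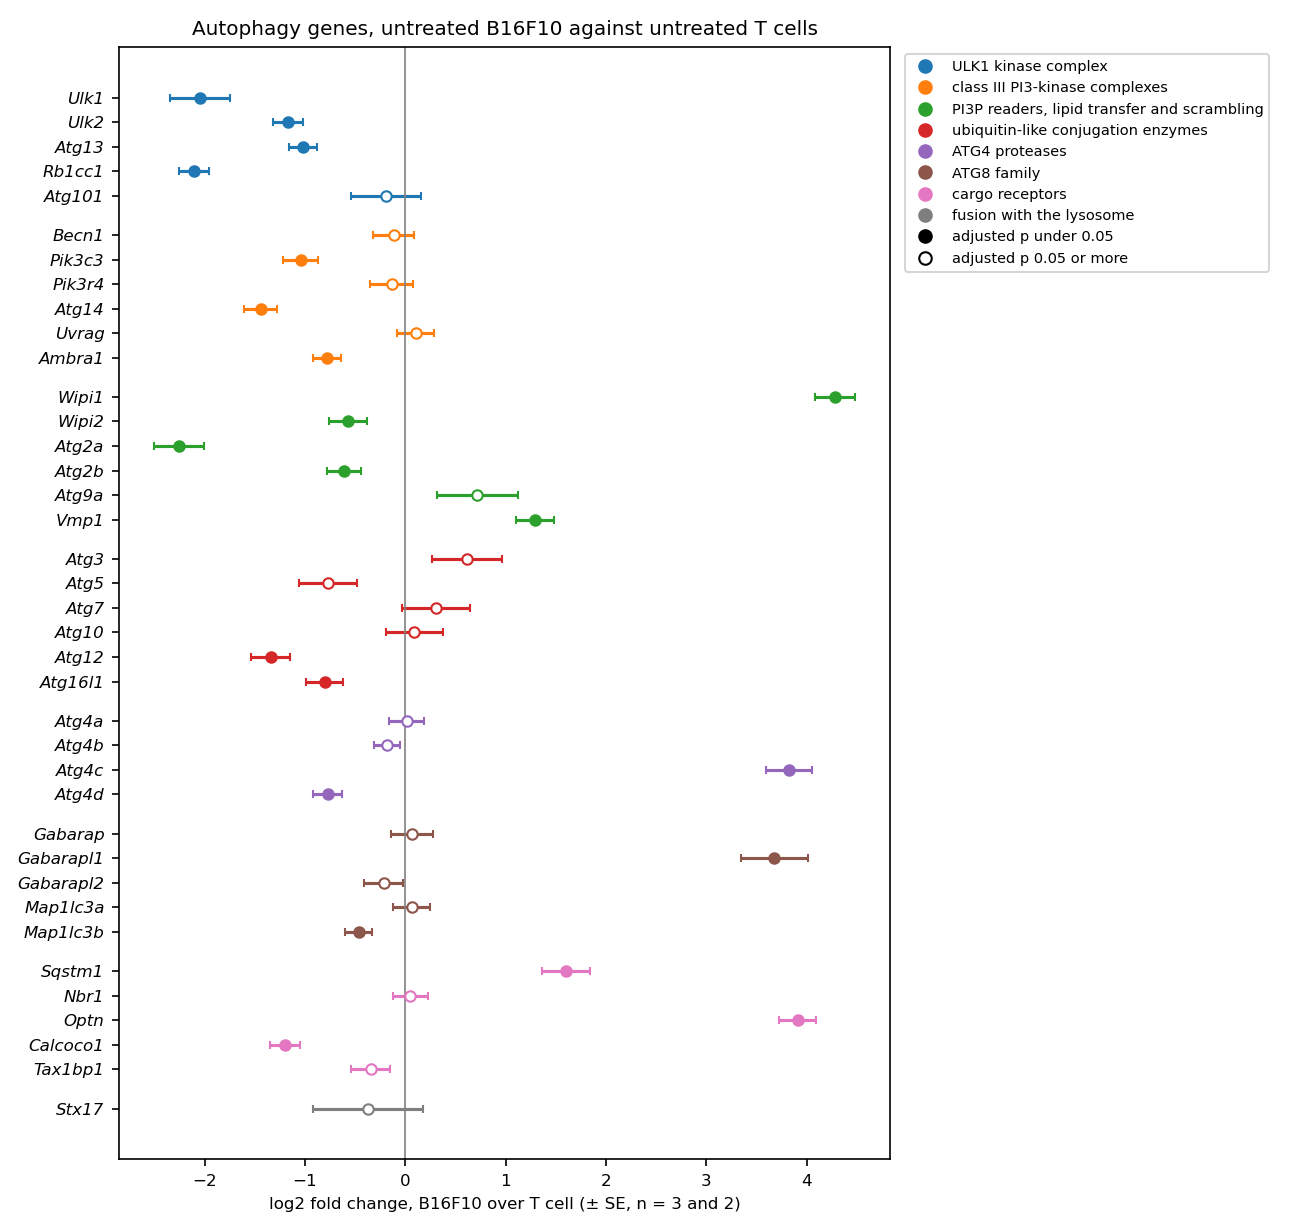
Log2 fold change, untreated B16F10 over untreated T cells, for the 38 members (x axis, ± SE, n = 3 and 2), in the same order of steps; filled points passed an adjusted p of 0.05. Wipi1, Optn, Atg4c and Gabarapl1 stand right of 3.5, and 4 of 5 ULK1 complex genes stand left of -1.

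In the T cell HOCl library, set beside the range of the 2 untreated T cell libraries and not tested here, 6 members lay above (Wipi1, Vmp1, Atg4c, Gabarapl1, Sqstm1 and Optn), 28 below and 4 within, while 34.1% of the 12401 genes at 1 CPM or more lay above and 49.4% below. Those 6 members above were the same 6 that were higher in untreated B16F10 than in untreated T cells. Scaled to the counts outside mitochondrial transcripts, an alternative chosen after seeing the data, 9 members lay above and 18 below, while 51.2% of 12425 genes lay above and 30.9% below. The members added above were Atg9a, Atg4b and Map1lc3a. None of these passed between the untreated cell types, so the match with the 6 did not hold on that scale. Gabarapl1 had 70.5 CPM in the T cell HOCl library, against 5.81 and 10.4 CPM in untreated T cells. Sqstm1 had 467 CPM, against 310.4 and 417 CPM. Wipi1 had 29.5 CPM, against 2.46 and 1.86 CPM. All 3 stood between the untreated T cell and the untreated B16F10 levels given above. The melanocyte markers of the same library stood at 27.0% of their mean sum in untreated B16F10, and the T cell markers at 14.7% of theirs in untreated T cells; their part in these values was not tested.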

How the data were processed

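The deposited files hold raw counts of reads per gene, made by the authors. The submitters' processing notes name FastQC 0.11.8, STAR 2.7.1a, featureCounts 1.6.0, DESeq2 1.22.2 and build mm10. Annotation, strand setting and the handling of multi-mapping reads: not given in the sources used here. The authors' deposited table gives a log2 fold change and an adjusted p-value per gene, used here to set calls side by side. Of 54838 gene IDs, 54809 were found in GENCODE M21 (GRCm38), which gave coordinates and the union exon length behind transcripts per M transcripts (TPM). Library totals were 12.8 to 61.3 M counts, and a gene at 0 could stand at up to 3 counts, or 0.0489 to 0.234 CPM, for counting error only. Chi-square per degree of freedom between libraries of a group was 3.73 to 23.2 in B16F10 and 393 in untreated T cells, so each library was counted once. In B16F10 the pairs with untreated replicate 1 gave 23.2 and 21.2, and all other pairs 3.73 to 7.01.

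Each comparison was fitted on all genes kept by filterByExpr with edgeR 4.0.16 in R 4.3.3 (TMM scaling, robust quasi-likelihood F test, Benjamini-Hochberg adjustment over all genes tested, threshold 0.05), after a check on simulated data. That simulation gave every gene the same spread in both comparisons, so it does not cover the wide spread of the untreated T cell libraries. The standard error (SE) is the size of the log2 fold change over the square root of F. HOCl-treated was compared with untreated B16F10, and untreated B16F10 with untreated T cells; the T cell HOCl library was not tested here. CPM are counts per M of a library's total. Alternatives were DESeq2 1.42.0, other scalings and filters, a test against a 1.5-fold change, all 9 libraries in 1 fit, a replicate block, and leaving out each library. All 38 members are given, with full statistics for those past the threshold whose CPM ranges do not overlap, and up to 3 genes per direction for related lists. The members and lists were chosen with earlier results of these data known.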

Additional observations from a re-analysis of the deposited data

Results flagged for a closer look

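For 16 members that rose in HOCl-treated B16F10, the T cell HOCl library lay below both untreated T cell libraries, as did 49.4% of the 12401 genes at 1 CPM or more in untreated T cells. The difference between the cell types was not tested. The T cell side rests on 1 library, with 37.4% mitochondrial counts, melanocyte markers summing to 6712 CPM, or 27.0% of their mean sum in untreated B16F10, and T cell markers at 14.7% of their mean sum in untreated T cells; their part in these values was not tested. The values below are its CPM over the mean CPM of untreated T cells. In the ULK1 complex the ratio was 0.177 for Ulk1, 0.491 for Ulk2, 0.371 for Atg13, 0.368 for Rb1cc1 and 0.510 for Atg101. Among PI3-kinase genes it was 0.310 for Pik3c3, 0.474 for Pik3r4, 0.373 for Atg14 and 0.682 for Ambra1. Among the membrane, conjugation and ATG8 genes it was 0.570 for Wipi2, 0.189 for Atg2a, 0.406 for Atg12 and 0.329 for Map1lc3b. Among the cargo receptors it was 0.654 for Nbr1, 0.314 for Calcoco1 and 0.366 for Tax1bp1. Scaled to counts outside mitochondrial transcripts, 11 of the 16 lay below both untreated libraries (30.9% of 12425 genes), and Atg101, Pik3r4, Ambra1, Wipi2 and Nbr1 did not. The lowest ratios were those of Ulk1 and Atg2a. Gabarapl1, Sqstm1, Optn and Atg4c rose in B16F10 and lay above both untreated libraries in the T cell HOCl library. So did Wipi1 and Vmp1 in the T cell HOCl library, although neither passed with HOCl in B16F10. All of these genes were also higher in untreated B16F10 than in untreated T cells, and no other member was. Outside mitochondrial counts, Atg9a, Atg4b and Map1lc3a lay above as well, and none of them passed between the untreated cell types.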

How the results depend on the processing

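In B16F10 with HOCl, the count of 20 members higher and 0 lower was the same with DESeq2, its size factors, library totals, no filter, a filter of 1 CPM and a replicate block (2726 genes higher and 2567 lower overall). Against a change of 1.5-fold, 1 member was higher and, among all genes, 28 were higher and 45 lower. With all 9 libraries in 1 fit, 0 members, 11 genes higher and 26 lower passed; the cause was not tested. Leaving out single libraries gave 15 to 24 members higher, without HOCl replicate 1 at the low end and without untreated replicate 1 at the high end, 1605 to 2819 genes higher and 1410 to 2634 lower, beside 2366 and 2178. Between untreated cell types, members lower fell to 9, against 15, both against 1.5-fold and with the replicate block. Leaving out single B16F10 libraries gave 6 members higher and 13 or 14 lower. Leaving out a T cell library leaves 1 in that group, so only log2 fold changes are given for those fits. Leaving out either T cell library moved Atg101 between -0.65 and 0.58, Becn1 between -0.34 and 0.24 and Stx17 between -1.02 and 1.03 (log2). Several other uncalled members also changed sign without a T cell library. In the T cell HOCl library, 18 members lay below outside mitochondrial counts (30.9% of all genes there), against 28 (49.4%). Deviations from the group mean in same-numbered libraries correlated at 0.04, -0.003 and 0.001 in B16F10 and at -0.14 and -0.13 between cell types. With 2 T cell libraries the deviations mirror each other, so differently numbered pairs gave the same sizes with the sign turned. With so few libraries this check cannot decide whether the numbers pair the samples. With 2 and 3 libraries a group and 1 treated T cell library, small changes may be missed, and a p that misses the threshold does not show that a gene stayed level.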
